A study of Mus musculus with 6 samples.

Results

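MHC class II molecules present peptides taken up from outside the cell to CD4+ T cells. The 9 genes described here are those named for the pathway: the class II chains H2-Aa, H2-Ab1 and H2-Eb1, the peptide editor H2-DM (H2-DMa and H2-DMb1), the invariant chain Cd74, the transactivator Ciita, the protease Ctss and the thiol reductase Ifi30. They were chosen by symbol from a table of 47643 genes, and all 9 passed the filter on low counts that left 12720 genes to test. The libraries came from the intestine of male C57BL/6 mice, 7 to 8 weeks old, all injected with tamoxifen and kept on a 60% high-fat diet for 2 weeks. The 3 control libraries carried the floxed gene (Mycfl/fl) and the 3 Myc-deleted libraries had the genotype MycΔIE, ERT2, where ERT2 is the usual name of the receptor domain that makes a recombinase depend on tamoxifen. The labels name neither the promoter that drives the recombinase nor whether the controls carry one, so the effects of losing Myc and of recombinase activity cannot be told apart. Nothing in the labels ties each library to a separate litter, day or pool, and p-values measure only the spread between these libraries.

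In the classical pathway, the α and β chains assemble in the endoplasmic reticulum on a trimer of the invariant chain, which blocks the groove and carries them to endosomes. There cathepsin S trims the invariant chain, Ifi30 (also called GILT) reduces disulfide bonds of incoming proteins, and H2-DM exchanges the last invariant chain fragment for antigenic peptides. Professional antigen-presenting cells make the pathway constitutively. Enterocytes of the small intestine also make it, under control of Ciita, which is induced by interferon-γ and does not bind DNA itself. Bulk libraries hold all of these cells together, and fewer cells of a type and less RNA per cell cannot be told apart.

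The 6 libraries held 9956938 to 11328693 expected counts. Myc, the targeted gene, stood at 5.86 to 6.05 CPM (counts scaled to a common library size) across the controls and at 3.29, 4.36 and 5.81 CPM in Myc-deleted libraries 1 to 3 (log2 fold change -0.41 ± 0.22, edgeR adjusted p = 0.318). Its level in Myc-deleted library 3 was close to the controls, and counts per gene carry no information on exons. Without Myc-deleted library 3 the median log2 fold change of the 9 class II genes was 0.19, against 0.16 with it, and 0 of the 9 were called either way.

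Ciita acts on a promoter module in which the RFX complex binds an X box and NF-Y binds a Y box a fixed distance downstream. RefSeq promoter windows of 250 bases before to 50 after a start (GRCm38.p6) were found for 6 of the 9 genes. The stretches of 3 of them are shown because they share this arrangement at nearly the same place. Capitals mark GNAACT, in the X box region, and GATTGG, the Y box with its inverted CCAAT, and all are read 5′ to 3′ on the gene's strand.
H2-Aa: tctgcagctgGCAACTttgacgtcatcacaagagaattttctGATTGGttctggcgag
H2-Eb1: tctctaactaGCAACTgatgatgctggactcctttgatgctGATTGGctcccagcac
H2-DMb1: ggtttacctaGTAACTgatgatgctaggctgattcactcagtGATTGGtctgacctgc
The H2-Aa stretch is at chr17:34287857-34287914 (minus strand), that of H2-Eb1 at chr17:34305766-34305822 (plus strand) and that of H2-DMb1 at chr17:34153087-34153144 (plus strand). The gap between the motifs was 26 bases in H2-Aa and H2-DMb1 and 25 bases in H2-Eb1. The first capital lay 81 bases before the start of H2-Aa, 91 before that of H2-Eb1 and 94 before that of H2-DMb1 in RefSeq. The first 2 stretches lie upstream of the gene in GENCODE M21 as well, whereas the H2-DMb1 stretch lies inside the GENCODE gene, which begins at 34153072. GNAACT, 25 or 26 bases and GATTGG, searched on both strands, occurred in 14 of 32851 windows of this length (0.0426%). Another class II gene, H2-Eb2, held 1 of the other 11. These letters and gaps are those of the 3 stretches shown, so the low share does not test the arrangement. By itself GATTGG occurred in 16.1% of windows and GNAACT in 42.8%.

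The windows of H2-DMa and Ifi30 did not hold the pair at this spacing, and neither did that of Ctss. For H2-DMa, GNAACT and GATTGG were each found when both strands were searched, not necessarily on the same strand, whereas Ifi30 and Ctss had neither. The Ctss window held an interferon-response letter string instead, GAAANNGAAA, marked here in capitals.
Ctss: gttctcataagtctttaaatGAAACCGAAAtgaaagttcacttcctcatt
This stretch lies at chr3:95526745-95526794 (plus strand), with the first capital 21 bases before the start and its end just inside the gene. The string, on either strand, was present in 3.44% of windows and in 1 of the 6 matched genes. A match is a run of letters and does not show that a factor was bound.

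Cd74 and the class II chains were abundant in every library, and none of the 9 differed between the genotypes beyond the spread between libraries. By the edgeR quasi-likelihood test 0 of 9 were called, where 7.95% of all tested genes were called (4.22% higher and 3.73% lower in the Myc-deleted mice). The values of the genotypes overlapped for all 9 genes, whereas 27.8% of tested genes showed no overlap. At an unadjusted p under 0.05 the count was also 0 of 9, against 22.2% of all tested genes. DESeq2 and limma voom called 0 of 9 as well. The fold change was above 0 on the log2 scale for 7 of the 9 and below 0 for Ciita and Ifi30. It was above 0 for 49.8% of all tested genes. H2-Aa, H2-Ab1, H2-Eb1, H2-DMa, H2-DMb1 and Cd74 varied together between libraries, so their signs are not separate observations. The median was 0.16 over the 9 genes and -0.00212 over all tested genes.

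**Figure D1:**
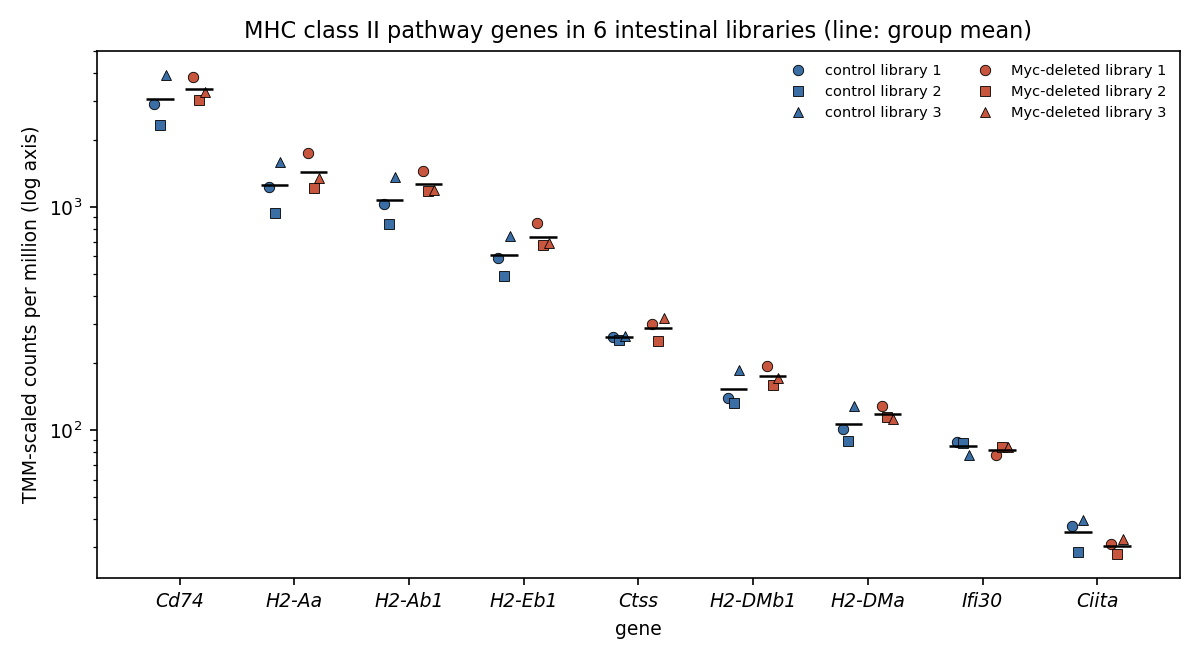
Level of each pathway gene in every library, in TMM-scaled CPM (counts scaled to a common library size) on a log axis. Colours are the genotypes, symbols the library numbers and lines the group means; the groups overlap for all 9 genes, and control library 2 (blue square) is the lowest point for Cd74, the 3 classical chains and both H2-DM chains.

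H2-Aa encodes the α chain of I-A, the class II molecule that C57BL/6 mice display (chromosome 17, 34282744 to 34287823, minus strand; GENCODE M21, GRCm38). Its level was 1234, 943 and 1599 CPM in control libraries 1 to 3 and 1752, 1214 and 1348 CPM in Myc-deleted libraries 1 to 3. The groups overlapped: control library 3 stood above Myc-deleted libraries 2 and 3, and control library 2 was the lowest of all. The means were 1259 ± 329 and 1438 ± 280 CPM (SD, n = 3 each), a log2 fold change of 0.19 ± 0.19 (SE; 95% interval -0.23 to 0.62; edgeR adjusted p = 0.608).

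H2-Ab1 (chromosome 17, 34257689 to 34269419, plus strand) encodes the β chain that pairs with it. It stood at 1031, 835 and 1368 CPM across the controls and at 1455, 1175 and 1191 CPM in the Myc-deleted libraries, with the same lowest and highest libraries as H2-Aa. The fitted log2 fold change was 0.24 ± 0.17 (95% interval -0.13 to 0.61; edgeR adjusted p = 0.440). The ratio of H2-Aa to H2-Ab1 per kilobase of exon stayed between 0.698 and 0.814 in the 6 libraries, while each gene alone varied 1.86-fold and 1.74-fold between its highest and lowest library.

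H2-Eb1 (chromosome 17, 34305867 to 34316674, plus strand) encodes the β chain of I-E, which C57BL/6 mice do not display because they lack a working I-E α gene. That gene, H2-Ea-ps, had 0 counts in every library, where 3 counts would be 0.259 to 0.306 CPM. H2-Eb1 nevertheless reached 592, 488 and 744 CPM across the controls and 844, 679 and 689 CPM in the Myc-deleted libraries. Only control library 3 among the controls lay above any Myc-deleted library. Its log2 fold change of 0.28 ± 0.15 (95% interval -0.05 to 0.61; edgeR adjusted p = 0.313) was the largest of the 9 and ranked 1968 among all tested genes.

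Cd74, the invariant chain and also a receptor for the cytokine MIF (chromosome 18, 60803848 to 60812652, plus strand), was the most abundant of the 9. Its level was 2897, 2320 and 3918 CPM across the controls and 3824, 3032 and 3293 CPM in the Myc-deleted libraries. The highest and the lowest library were both controls. The log2 fold change was 0.15 ± 0.18 (95% interval -0.24 to 0.55; edgeR adjusted p = 0.672), and -0.02 without control library 2.

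H2-DM, the peptide editor, is encoded by H2-DMa (chromosome 17, 34119541 to 34139101) and H2-DMb1 (chromosome 17, 34153072 to 34160230), both on the plus strand. H2-DMa stood at 101, 89.0 and 128 CPM across the controls and at 129, 114 and 112 CPM in the Myc-deleted libraries. Its highest control and its highest Myc-deleted library were nearly level. The fitted log2 fold change was 0.16 ± 0.12 (95% interval -0.12 to 0.44; edgeR adjusted p = 0.499). H2-DMa overlaps exons of Brd2 on the opposite strand. The kit was stranded, but the counting is not stated to have used strand, so reads of these 2 genes may be mixed there.

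H2-DMb1 was measured at 139, 132 and 186 CPM across the controls and at 194, 160 and 171 CPM in the Myc-deleted libraries. Control library 3 again lay among the Myc-deleted libraries. The log2 fold change was 0.20 ± 0.13 (95% interval -0.09 to 0.50; edgeR adjusted p = 0.414). Its near-identical neighbour H2-DMb2 may share reads with it, which was not measured. With both summed the log2 fold change was 0.17 (adjusted p = 0.458).

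Ciita, the coactivator on which class II transcription depends (chromosome 16, 10480059 to 10528418, plus strand), was the least abundant. It stood at 37.0, 28.4 and 39.3 CPM across the controls and at 30.7, 27.9 and 32.5 CPM in the Myc-deleted libraries. Control library 2 fell within the Myc-deleted range, and the other 2 controls lay above it. The fitted log2 fold change was -0.20 ± 0.13 (95% interval -0.48 to 0.09; edgeR adjusted p = 0.407). The gene shares exon positions with Dexi on the opposite strand, with the same limit on reads as for H2-DMa.

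Ctss, the gene of cathepsin S (chromosome 3, 95526786 to 95556403, plus strand), had 262, 254 and 265 CPM across the controls and 297, 251 and 316 CPM in the Myc-deleted libraries. The controls lay close together, and the Myc-deleted libraries lay both above and below them. Its log2 fold change was 0.15 ± 0.09 (95% interval -0.06 to 0.35; edgeR adjusted p = 0.4001). Ifi30, the lysosomal thiol reductase (chromosome 8, 70762774 to 70766663, minus strand), had 88.5, 87.6 and 77.6 CPM across the controls and 77.5, 83.8 and 84.1 CPM in the Myc-deleted libraries. The Ifi30 values of the groups were interleaved. This gene, too, shares exon positions with one on the opposite strand, 6330537M06Rik. The log2 fold change of -0.05 ± 0.08 (95% interval -0.23 to 0.13; edgeR adjusted p = 0.784) was the closest to 0 of the 9.

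**Figure D2:**
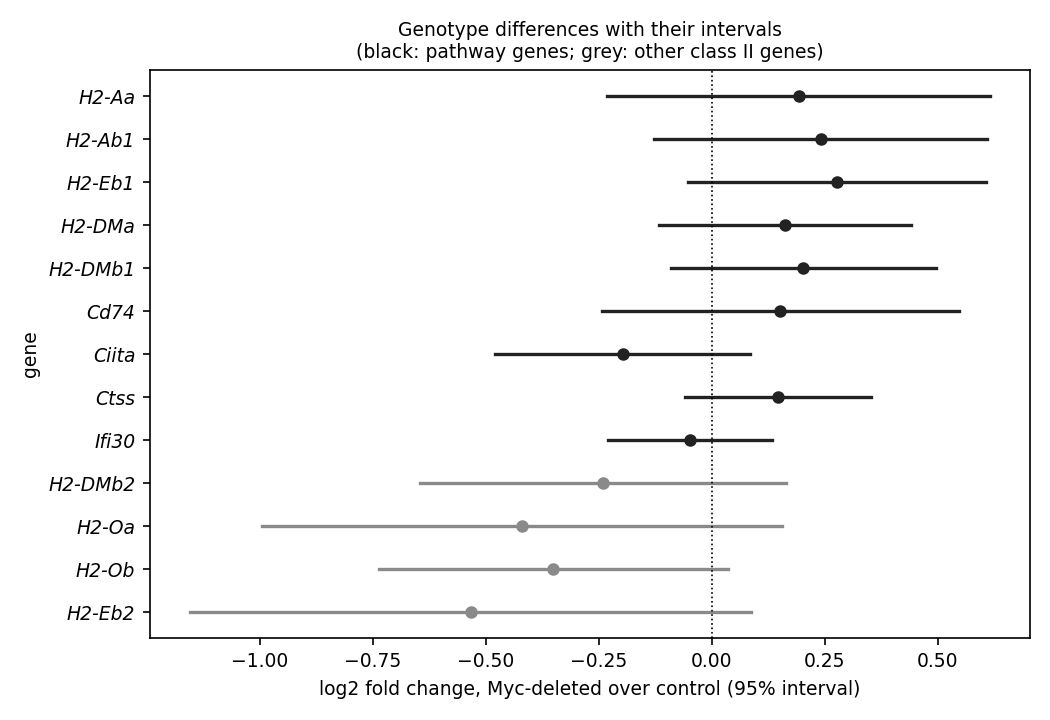
Log2 fold change of Myc-deleted over control (points) with its 95% interval (lines) from the edgeR fit, for the 9 pathway genes (black) and 4 other class II genes (grey). The intervals of all 13 genes include 0.

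These intervals limit how large a change could have gone unseen. For H2-Aa, H2-Ab1 and H2-Eb1 they ran from at lowest 0.852-fold to at highest 1.53-fold, for Cd74 from 0.845-fold to 1.46-fold and for Ciita from 0.717-fold to 1.06-fold. With the SE as measured, a change of 1.63-fold in H2-Aa, 1.58-fold in Cd74 or 1.39-fold in Ciita would have been needed to pass the threshold. For Ctss 1.27-fold and for Ifi30 1.24-fold would have sufficed. Of the 6 runs without a library, those without control library 2 or 3 moved the median of the 9 genes most. Without control library 2 the median log2 fold change of the 9 genes was 0.04, with H2-Aa at 0.01 and H2-Ab1 at 0.08. Without control library 3 it was 0.37, with H2-Aa at 0.40, H2-Ab1 at 0.45 and H2-Eb1 at 0.45, and none of the 9 was called (edgeR adjusted p = 0.0822 at lowest, for H2-DMb1).

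Levels of the 9 genes were compared per kilobase of merged exon length, a scale that understates genes with long, rarely used exons. Cd74 led with 1814 ± 482 CPM per kilobase in the controls (SD, n = 3), and its lowest library stood above the highest of every other gene. H2-Ab1 (420 ± 105), H2-Aa (331 ± 86.6) and H2-Eb1 (313 ± 66.2) followed. H2-Ab1 was above H2-Aa in each of the 6 libraries, while H2-Aa and H2-Eb1 changed places between libraries and did not differ beyond their spread. Ctss came next (192 ± 4.16), below the lowest library of H2-Eb1. H2-DMb1 (90.6 ± 17.6) and Ifi30 (86.2 ± 6.15) overlapped. H2-DMa (30.7 ± 5.76) and Ciita (3.66 ± 0.606) were each below all libraries of the genes before them. The Myc-deleted libraries gave the same order except that H2-Eb1 (379.1 ± 47.7) stood next to H2-Aa (378.5 ± 73.8) in reversed places. The invariant chain exceeded H2-Aa 4.94-fold to 5.65-fold per kilobase in every library.

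The chain genes differed widely between libraries of one genotype, and they did so together. The coefficient of variation of H2-Aa was 26.1% among controls and 19.5% among Myc-deleted libraries, where counting error alone would give 0.836%. For Cd74 it was 26.6% and 11.9%, against 0.542% from counting. The SD of log2 CPM within groups was 0.33 for H2-Aa, larger than in 96.5% of the 1817 genes with at least 100 CPM on average. Control library 2 was the lowest of all 6 libraries for H2-Aa, H2-Ab1, H2-Eb1, H2-DMa, H2-DMb1 and Cd74. Myc-deleted library 1 was the highest for 5 of these and control library 3 for Cd74. Ctss and Ifi30 varied much less, with SDs of 0.12 and 0.09 within groups. Ctss was lowest in Myc-deleted library 2 and highest in Myc-deleted library 3, and Ifi30 was lowest in Myc-deleted library 1 and highest in control library 1. Ciita had its 2 highest levels in control libraries 3 and 1. Like the chains, it was below its own mean in control library 2, by 0.19 (log2), and above it in control library 3, by 0.28. In Myc-deleted library 1, where H2-Aa, H2-Ab1 and H2-Eb1 peaked, Ciita was below its own mean by 0.07.

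**Figure D3:**
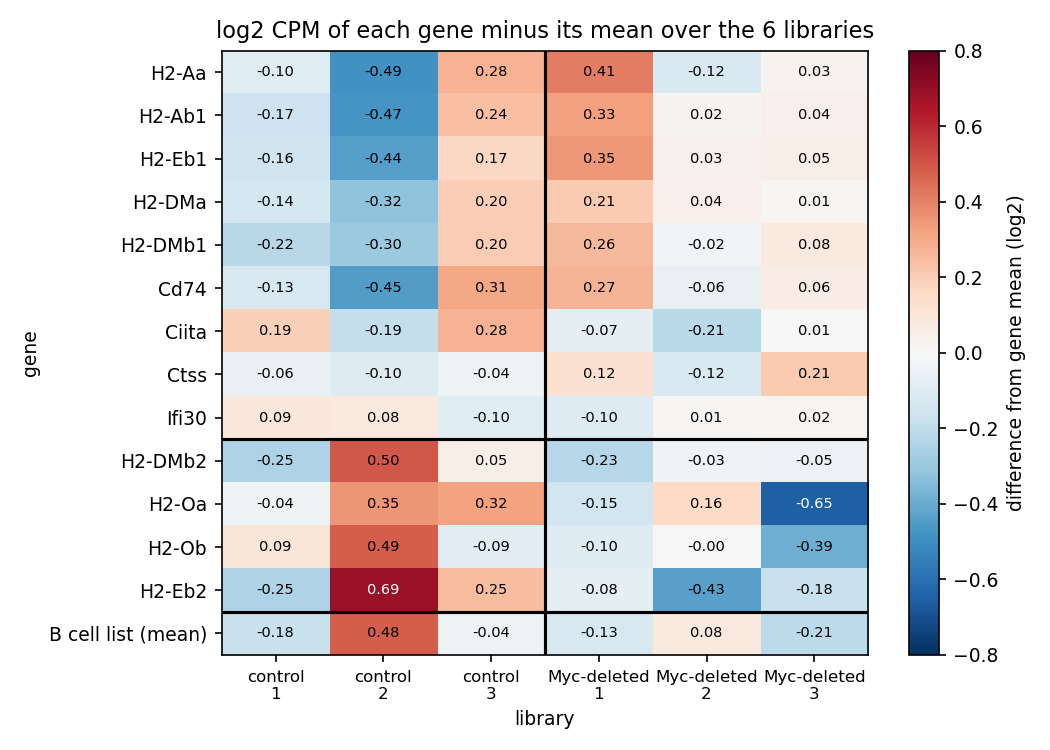
Difference of each gene's log2 CPM from its mean over the 6 libraries (columns), for the 9 pathway genes, 4 other class II genes and the mean of the B cell marker list (rows). H2-Aa runs from -0.49 in control library 2 to 0.41 in Myc-deleted library 1, and the B cell list is at 0.48 in control library 2.

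The common profile of H2-Aa, H2-Ab1, H2-Eb1 and Cd74 was taken as the mean of their centred log2 CPM, and likeness to it as the root mean square difference over the 6 libraries. H2-DMb1 and H2-DMa, which did not enter the profile, differed from it by 0.0860 and 0.0867. Ctss (0.224), Ciita (0.255) and Ifi30 (0.331) lay further off, and the median over all tested genes was 0.325. The 3 tested genes outside the pathway closest to the profile were Ric1 (0.0650), Asap1 (0.0809) and Gm11127 (0.0815). None of these 3 was called, with adjusted p from 0.340 for Asap1 to 0.752 for Ric1 (edgeR).

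The remaining class II genes encode H2-O, the inhibitor of H2-DM made mainly by B cells (H2-Oa and H2-Ob), the second DM β chain (H2-DMb2) and H2-Eb2. They were low, and 0 of the 4 tested were called. H2-Ob stood at 13.1, 17.3 and 11.5 CPM across the controls and 11.4, 12.3 and 9.32 CPM in the Myc-deleted libraries, H2-DMb2 at 10.8, 18.2 and 13.4 CPM and 10.98, 12.6 and 12.46 CPM. All 4 had their highest value in control library 2, the library in which the classical chains were lowest. Their log2 fold changes were -0.24 for H2-DMb2, -0.35 for H2-Ob, -0.42 for H2-Oa and -0.53 for H2-Eb2 (edgeR adjusted p = 0.274 to 0.487), and -0.02, -0.17, -0.36 and -0.27 without control library 2.

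Markers of cells that carry class II were read beside these genes. Of 14 B cell markers, 13 were highest in control library 2, where the list summed to 305 CPM against 181 to 225 CPM in the other 5 libraries. None of the 14 was called (median log2 fold change -0.23), and Ighm, the IgM heavy chain and the most abundant, stood at 59.0 ± 14.3 CPM across the controls and 46.1 ± 7.58 CPM after deletion (SD, n = 3 each). The macrophage list summed to 240 to 273 CPM across the controls and 221 to 261 CPM in the Myc-deleted libraries, and 0 of its 11 tested genes were called. Its most abundant gene was Mertk, a receptor for dying cells (log2 fold change -0.18, edgeR adjusted p = 0.494). Only 3 of 10 dendritic cell markers were abundant enough to test, and 0 were called. The 10 markers summed to 13.6 to 16.4 CPM across the controls and 8.64 to 13.2 CPM in the Myc-deleted libraries, without overlap. Taken singly, 1 of the 3 testable markers was lower and 0 were higher without overlap, where 27.8% of all tested genes showed no overlap. Itgax, the CD11c gene, had a log2 fold change of -0.65 (adjusted p = 0.0807). It passed with every detected gene kept (adjusted p = 0.0379) and with a replicate block (0.0396).

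The pan-leukocyte list summed to 187 to 239 CPM across the controls and 180 to 200.1 CPM in the Myc-deleted libraries, with 0 of 8 genes called and Lcp1, an actin-bundling protein of leukocytes, at -0.27 (edgeR adjusted p = 0.169). T cell and innate lymphoid markers summed to 139 to 188 CPM and 132 to 152 CPM, with 0 of 13 called. Plasma cell markers summed to 2228 to 2727 CPM across the controls and 2991 to 3410 CPM in the Myc-deleted libraries, without overlap and with 0 of 9 called. Of these 9, 6 had a positive and 3 a negative fold change. Taken singly, 2 were higher and 1 was lower without overlap, where 27.8% of all tested genes showed no overlap. The most abundant plasma cell gene, the IgA heavy chain Igha, had a log2 fold change of 0.36 (edgeR adjusted p = 0.110). It passed with DESeq2 (0.0293) and with every detected gene kept (0.0455). No marker in these lists was at 0 in all 6 libraries. The part of any of these cells in the class II values was not tested.

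Epithelial markers summed to 22477 to 25226 CPM across the controls and 22821 to 24571 CPM in the Myc-deleted libraries, with 0 of 10 called. Krt8, a keratin of simple epithelia, was the most abundant (-0.16, edgeR adjusted p = 0.408). The extraction protocol names liver, whereas the other labels name the intestine without a segment. Hepatocyte markers summed to 29.8 to 47.8 CPM across the controls and 8.36 to 20.7 CPM in the Myc-deleted libraries. Of these markers, 4 of 10 were testable and 2 were called lower, where 3.73% of all tested genes were. Alb, the albumin gene, stood at 2.61 ± 0.667 and 0.582 ± 0.433 CPM, and Tat, a tyrosine-degrading enzyme, at 32.2 ± 8.22 and 11.7 ± 6.00 CPM (SD, n = 3 each), so that Tat made up most of the sum. The other testable markers, Ttr (log2 fold change 0.30, edgeR adjusted p = 0.603) and Apoh (0.25, adjusted p = 0.814), had positive fold changes and did not pass. Without control library 2, Apoh was at -0.13. Alb kept its call in 1 of the 6 runs without a library (edgeR adjusted p = 0.0514, 0.130 and 0.0903 when control library 1, 2 or 3 was left out, 0.0591 and 0.0661 when Myc-deleted library 2 or 3 was) and lost it with the replicate block (0.0583). Tat did not pass with DESeq2 (adjusted p = 0.0631) or without control library 2 (0.0892) or 3 (0.0926). Stromal and muscle markers summed to 73.1 to 145 CPM and 72.9 to 100.1 CPM with 0 of 10 called, and Col3a1, a collagen, was at 0.02 (adjusted p = 0.964; its sign turned with upper-quartile scaling).

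Interferon-γ reaches Ciita through its receptor and the kinases Jak1 and Jak2. Of 12 genes of this route 11 could be tested. Irf1, which activates a Ciita promoter, had a log2 fold change of -0.12 ± 0.12 (edgeR adjusted p = 0.612), and 0.03 without control library 3. Ifngr2, a receptor chain and the most abundant of the list, was at 0.12 ± 0.07 (adjusted p = 0.374). Ifng itself was too low to test, at 0 to 0.306 CPM.

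The factors that recruit Ciita to promoters did not pass the test. Of 10 transcription factors and regulators 0 were called by edgeR, 5 of them with a positive and 5 with a negative fold change. The RFX complex genes were at 0.21 ± 0.15 for Rfx5, -0.05 ± 0.16 for Rfxap and 0.21 ± 0.13 for Rfxank (log2; edgeR adjusted p = 0.371 to 0.887), and Rfxap was at 0.04 without Myc-deleted library 2. Nfyc, a subunit of the Y box factor NF-Y and the most abundant of the list, was at -0.11 ± 0.09 (adjusted p = 0.570). Nlrc5, a relative of Ciita that acts on class I genes, was at 20.4, 12.7 and 24.2 CPM across the controls and 34.8, 23.3 and 49.0 CPM in the Myc-deleted libraries. It did not pass (0.91 ± 0.28, edgeR adjusted p = 0.0787), but did with a replicate block (0.00240), with every detected gene kept (0.00504) and without Myc-deleted library 2 (0.0291).

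Among 12 testable endosomal proteases and their inhibitors, 1 rose and 1 fell, where 7.95% of all tested genes were called. Sppl2a, an intramembrane protease that clears the stub left when the invariant chain is cut, rose from 118, 99.2 and 115 CPM to 148, 134 and 184 CPM (0.49 ± 0.12, edgeR adjusted p = 0.0360), with no overlap. It lost its call when any control was left out (adjusted p = 0.0716, 0.164 and 0.0805 for libraries 1 to 3), and likewise for Myc-deleted libraries 1 (0.0533) and 3 (0.0864). Ctsc, which activates granule proteases, fell from 106, 128 and 103 CPM to 80.2, 76.0 and 88.2 CPM (-0.47 ± 0.10, edgeR adjusted p = 0.0211). It lost its call when control library 2 (adjusted p = 0.0786) or Myc-deleted library 1 (0.0518) or 2 (0.0783) was left out. Ctsb, the most abundant cathepsin gene of the list, was at 0.13 ± 0.09 (adjusted p = 0.457).

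Of 12 genes of class II turnover and traffic 1 fell and 0 rose, where 7.95% of all tested genes were called. Cd9, a tetraspanin of membranes that also hold class II, went from 92.1, 94.9 and 81.8 CPM to 66.8, 60.7 and 63.2 CPM (-0.50 ± 0.08, edgeR adjusted p = 0.00690), and it was called in each alternative fit. Lamp1, a lysosomal membrane protein and the most abundant of the list, was at 0.17 ± 0.08 (adjusted p = 0.251). Of 8 genes of T cell costimulation 4 could be tested, and 0 were called by edgeR. All 4 had a positive fold change, where 49.8% of all tested genes did. Taken singly, 2 of the 4 were higher without overlap, where 14% of all tested genes were. Icosl, the ligand of ICOS, was the most abundant, at 13.1, 12.2 and 12.0 CPM across the controls and 20.7, 17.5 and 14.8 CPM in the Myc-deleted libraries. The difference in Icosl did not pass (0.51 ± 0.14, edgeR adjusted p = 0.0547), but did with every detected gene kept (0.0293) and without Myc-deleted library 3 (0.0239).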

How the data were processed

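The 6 libraries (3 per genotype) were made with a stranded mRNA kit, per the labels' protocols. The deposited table holds RSEM expected counts per gene, not scaled between libraries; the submitters' processing notes also name cutadapt, STAR, Picard and the mm10 build, with versions and annotation release not given in the sources used here. Ensembl identifiers were matched without their version to GENCODE M21 (GRCm38), which named 99.1% of 47643 genes.

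Expected counts were rounded for edgeR 4.0.16 (R 4.3.3): filterByExpr (minimum count 10, minimum total 15), TMM scaling and the quasi-likelihood F-test between genotypes in all 6 libraries, adjusted by Benjamini-Hochberg across the 12720 genes that passed, threshold 0.05. The procedure was tested on simulated data. Levels are TMM-scaled CPM. Levels between genes were compared per kilobase of merged exons. Log2 CPM used a prior count of 2. Alternatives were other scalings and filters, DESeq2 1.42.0, limma 3.58.1 (voom), a replicate block, leaving out each library, a threshold of 0.1, and H2-DMb1 summed with H2-DMb2.

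The members and the gene lists were chosen with earlier results of these data known. Of the wider lists, genes past the threshold (at most 4 per pathway list and 3 per cell type list) and the most abundant gene are named. H2-Oa, H2-Ob, H2-Eb2, H2-Ea-ps, Rfx5, Rfxap, Rfxank, Nlrc5, Irf1, Ifng, Ttr and Apoh are named outside that rule, after their values were seen. Results of some genes under that rule are not reported here, so the interferon-γ list has no count of calls and 3 of the 5 genes most like the chains are named. Promoter sequences are RefSeq's (GRCm38.p6). The motif letters were chosen after these sequences were read, and the gaps searched are those of the stretches shown.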

Additional observations from a re-analysis of the deposited data

How the results depend on the processing

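The 9 class II genes were refitted under 14 alternatives (15 for H2-DMb1). In these 127 fits 0 passed the threshold, and 126 kept their direction. The exception was Cd74 at -0.0216 without control library 2 (0.37 without control library 3). Sign changes of other named genes, none of them called, came from leaving out 1 library. Without control library 2 or 3, respectively, Ric1 was at -0.0452 or 0.34 and Irf1 at -0.21 or 0.0329. Rfxap ran from -0.14 to 0.0365 (without Myc-deleted library 3 or 2), Apoh from -0.13 to 0.81 (without control library 2 or 1) and Col3a1 from -0.19 to 0.15 (without Myc-deleted library 1 or control library 1). The cause of these sign changes was not tested. With upper-quartile scaling Col3a1 was at -0.0228. Over all genes 1011 were called (537 higher, 474 lower). Leaving out 1 library gave 462 to 950 (229 to 503 higher, 233 to 447 lower), the lowest without control library 2, with fewer samples in each. A threshold of 0.1 gave 1572 (824 higher, 748 lower). The split was 449 higher and 591 lower with upper-quartile scaling, which moved the median of all genes by -0.04.

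With the replicate number as a block 980 genes were called, 0 of the 9 among them. Deviations of same-numbered libraries from their group means correlated across genes at 0.0261, 0.0524 and 0.0189 for numbers 1 to 3. These values are small, and whether same-numbered libraries share more than a number cannot be told from them. Each library correlated best with its own number, a hint from the data and not from the design. Counting error was 0.542% to 3.36% for 8 of the 9 genes and 5.38% for Ciita. For Ifi30 it was 3.36% against a coefficient of variation of 4.56% among Myc-deleted libraries, and for Ctss 1.85% against 2.17% among controls.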

Other observations

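The balance between genes of the pathway was also read within each library, per kilobase of exon, for ratios chosen after the counts of the class II genes had been seen. H2-Aa exceeded Ciita 83.8-fold, 83.5-fold and 102-fold in control libraries 1 to 3 and 143-fold, 109-fold and 104-fold in Myc-deleted libraries 1 to 3, without overlap (two-sided exact permutation test, p = 0.1, the smallest possible; 0.4 adjusted over 8 ratios). H2-DMa exceeded H2-Oa, a chain of its inhibitor, 10.9-fold, 7.24-fold and 10.6-fold in the controls. In the Myc-deleted libraries it did so 15.1-fold, 10.7-fold and 19.1-fold, with overlap (same permutation test, p = 0.2, 0.4 adjusted). H2-Oa had only 26 to 58 counts per library and shares exon positions with BC051537 on the opposite strand. The H2-DMa to H2-DMb1 ratio lay between 0.320 and 0.356 in all 6 libraries.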
